A study of Arabidopsis thaliana with 4 samples.

Results

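The wound and regeneration ERF genes are 9 Arabidopsis thaliana transcription factor genes chosen by locus code: WIND1 (AT1G78080), WIND2 (AT1G22190), WIND3 (AT1G36060), WIND4 (AT5G65130), ERF115 (AT5G07310), ERF114 (AT5G61890), RAP2.6L (AT5G13330, also called ERF113), RAP2.6 (AT1G43160, also called ERF108) and ERF109 (AT4G34410). Of these 9, 8 had a row among the 23922 loci of the count table, and ERF109 was not analysed here. The genes were named by locus code for their known roles, with earlier results of these data known. Transcript levels were measured by RNA-seq in callus, the dividing tissue that explants form on callus induction medium (CIM), with 2 libraries labelled as the plt1 plt2 double mutant and 2 labelled as wild type Col-0. Both labels share all other stated conditions: 9 days of growth in darkness, hypocotyl explants of about 1 cm, and 5 to 6 days (6 by the stage label) under 24 h light at 22 °C on CIM with 11 µM 2,4-D, 0.2 µM kinetin and 2% sucrose. About 100 calli were pooled for each RNA sample. The labels give neither the mutant alleles nor whether the calli of each library grew in a separate culture. The p-values therefore measure only the spread between these libraries, and that spread may be technical.

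AP2/ERF proteins bind DNA through an AP2 domain. WIND1 and its close relatives are switched on at cut surfaces, and raised WIND1 activity lets differentiated cells form callus and helps shoots regenerate. ERF115 is induced next to dead or wounded cells, and drives the replenishing divisions of the root stem cell niche together with the GRAS protein PAT1. ERF114 and RAP2.6L are close relatives of ERF115 with roles in wound-induced callus and in the healing of cut stems, and ERF109 links jasmonate to auxin synthesis.

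The libraries held 63209401 and 53907649 counted reads under the plt1 plt2 label and 59049542 and 57254672 under the wild type label. PLT1 and PLT2, the genes named by the mutant label, were read first. PLT1 had 122 and 128 CPM (counts per gene scaled to a common library size) in the libraries labelled plt1 plt2, against 171 and 166 CPM in those labelled wild type. PLT2 had 182 and 179 CPM under the plt1 plt2 label, against 63.0 and 62.1 CPM under the wild type label. Counts per gene do not show whether a disrupted gene still makes a partial transcript, so the libraries are called by their labels and each direction given rests on them. Callus markers were present in all libraries, with a summed level of 663 to 720 CPM under the plt1 plt2 label and 682 to 688 CPM under the wild type label over 6 genes (LBD16, LBD17, LBD18, LBD29, WOX5 and SCR). Green tissue markers summed to at most 1.29 CPM in any library over the 3 genes with a row.

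The upstream sequences are shown for the 4 ERF genes whose levels differed between the labels and for ERF115, whose window shares a run of bases with that of ERF114. Each is the 250 bases before the RefSeq gene start (TAIR10.1), read 5′ to 3′ on the strand of the gene, at chr1:7835531-7835780 for WIND2 (plus strand), chr1:13456337-13456586 for WIND3 (minus strand), chr5:2305301-2305550 for ERF115 (plus strand), chr5:24853942-24854191 for ERF114 (minus strand) and chr5:4271480-4271729 for RAP2.6L (plus strand). Capitals mark TTGAC, the core of the W-box that WRKY factors bind, on either strand, and the run TATGTTCACAC, which the ERF115 and ERF114 windows share.
WIND2: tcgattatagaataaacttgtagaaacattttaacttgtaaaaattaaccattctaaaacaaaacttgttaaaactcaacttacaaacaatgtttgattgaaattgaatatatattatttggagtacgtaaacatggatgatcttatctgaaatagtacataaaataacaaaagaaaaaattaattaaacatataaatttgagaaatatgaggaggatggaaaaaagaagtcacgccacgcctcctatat
WIND3: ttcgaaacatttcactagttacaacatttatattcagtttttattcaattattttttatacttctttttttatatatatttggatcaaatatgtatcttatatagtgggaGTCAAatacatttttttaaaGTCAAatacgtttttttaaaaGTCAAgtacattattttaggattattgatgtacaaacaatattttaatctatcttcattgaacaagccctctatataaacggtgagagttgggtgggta
ERF115: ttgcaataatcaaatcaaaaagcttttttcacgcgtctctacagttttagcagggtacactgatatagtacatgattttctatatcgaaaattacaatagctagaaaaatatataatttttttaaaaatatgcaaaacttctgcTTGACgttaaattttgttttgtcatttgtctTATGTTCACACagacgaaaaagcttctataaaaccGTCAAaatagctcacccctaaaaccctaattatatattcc
ERF114: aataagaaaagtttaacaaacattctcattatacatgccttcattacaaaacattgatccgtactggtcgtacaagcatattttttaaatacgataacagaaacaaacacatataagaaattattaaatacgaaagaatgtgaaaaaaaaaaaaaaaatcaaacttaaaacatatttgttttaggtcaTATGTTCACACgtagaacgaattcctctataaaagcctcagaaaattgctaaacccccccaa
RAP2.6L: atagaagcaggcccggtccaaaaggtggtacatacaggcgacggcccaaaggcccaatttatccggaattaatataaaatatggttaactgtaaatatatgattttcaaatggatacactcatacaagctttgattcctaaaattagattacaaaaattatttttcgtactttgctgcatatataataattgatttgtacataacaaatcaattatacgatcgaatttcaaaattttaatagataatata

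Between the ERF115 and ERF114 windows, the longest exact shared run was TATGTTCACAC, of 11 bases, which began 75 bases before the start of ERF115 and 62 bases before that of ERF114. It stood ahead of a TATAAA in both windows, at 49 and 35 bases before the start. The run occurred on either strand in 6 of 27438 upstream windows of nuclear protein-coding genes (0.0219%), the ERF115 and ERF114 windows included. It was noticed in the sequences and is given as a description only. Among the other pairs of the 9 windows, 3 also shared a run of 11 bases and none a longer one. Those 3 runs were in 0.0437%, 0.142% and 0.838% of all windows. The WIND3 window held TTGAC 3 times, always on the opposite strand, at 140, 120 and 99 bases before the start. TTGAC was present in 4 of the 9 windows (WIND3, WIND4, ERF115 and ERF109) and in 44.9% of all windows. CACGTG, the G-box, stood in 2 of 9, those of RAP2.6 and ERF109, and in 6.49% of all windows. On either strand, GCCGCC (the GCC box, 1.87% of all windows), CCGAC (the core of the dehydration-responsive element, 12.0%) and TGTCTC (the auxin response element core, 10.9%) were in 0 of 9.

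The 8 genes with a row spanned a wide range of levels, and the order per exon length was the same under both labels. WIND3 was the most abundant, at 137 and 123 RPKM (CPM per kilobase of exon) under the plt1 plt2 label, against 155 and 156 RPKM under the wild type label. WIND1 had 77.9 and 74.4 RPKM under the plt1 plt2 label, against 82.3 and 81.0 RPKM under the wild type label. RAP2.6L was next in order, with 60.2 and 57.6 RPKM under the plt1 plt2 label and 46.7 and 49.3 RPKM under the wild type label. WIND2 lay next to it, at 33.5 and 31.6 RPKM under the plt1 plt2 label and 44.1 and 43.0 RPKM under the wild type label. These neighbours were closest in the wild type libraries, where the lowest RAP2.6L value stood just above the highest WIND2 value, and they lay well apart under the plt1 plt2 label. ERF114 followed with 25.4 and 22.2 RPKM under the plt1 plt2 label and 16.7 and 16.6 RPKM under the wild type label. ERF115 was at 4.29 and 3.95 RPKM under the plt1 plt2 label and 3.35 and 3.13 RPKM under the wild type label. RAP2.6 (0.0654 to 0.226 RPKM over all libraries) and WIND4 (0.0271 to 0.0471 RPKM) were at the edge of detection. Neighbours in this order did not overlap between libraries of the same label, but RAP2.6 and WIND4 rest on 2 to 15 reads per library, too few to order them firmly.

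**Figure D1:**
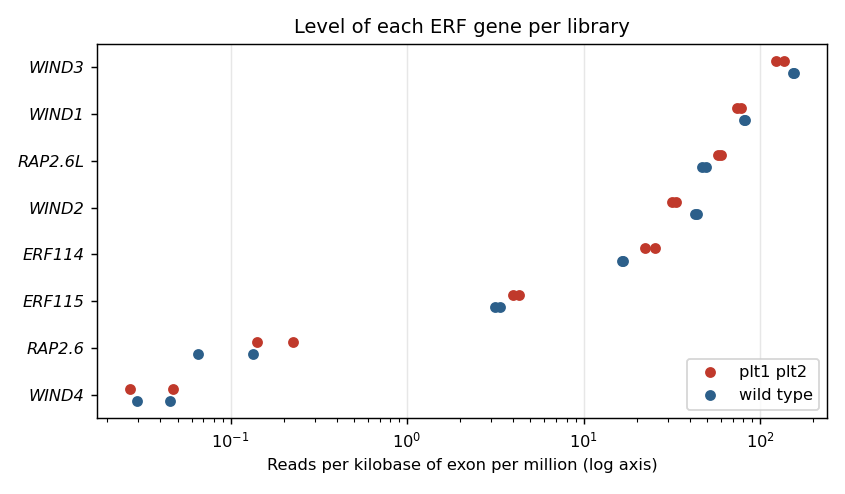
Level of each ERF gene in RPKM (CPM per kilobase of exon), on a log axis, 1 point per library, with the plt1 plt2 label above the wild type label in each row. WIND3, at 123 to 156, and WIND4, at 0.0271 to 0.0471, mark the ends of the range.

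WIND2 and WIND3 were lower and ERF114 and RAP2.6L were higher under the plt1 plt2 label, 4 of the 6 members that passed the low-count filter (edgeR, adjusted p below 0.05; 10.5% of the 19325 genes tested were called, 4.63% higher and 5.86% lower). WIND1, with a lower mean, and ERF115, with a higher one, were not called. The 2 labels did not overlap for any of the 6 tested members, 3 higher and 3 lower, where 54.7% of all genes tested had no overlap, 27.0% higher and 27.7% lower. The median log2 fold change was 0.10 over the 6 members and -0.0005 over all genes tested. In bulk tissue, fewer cells that express a gene and less RNA per cell cannot be told apart.

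**Figure D2:**
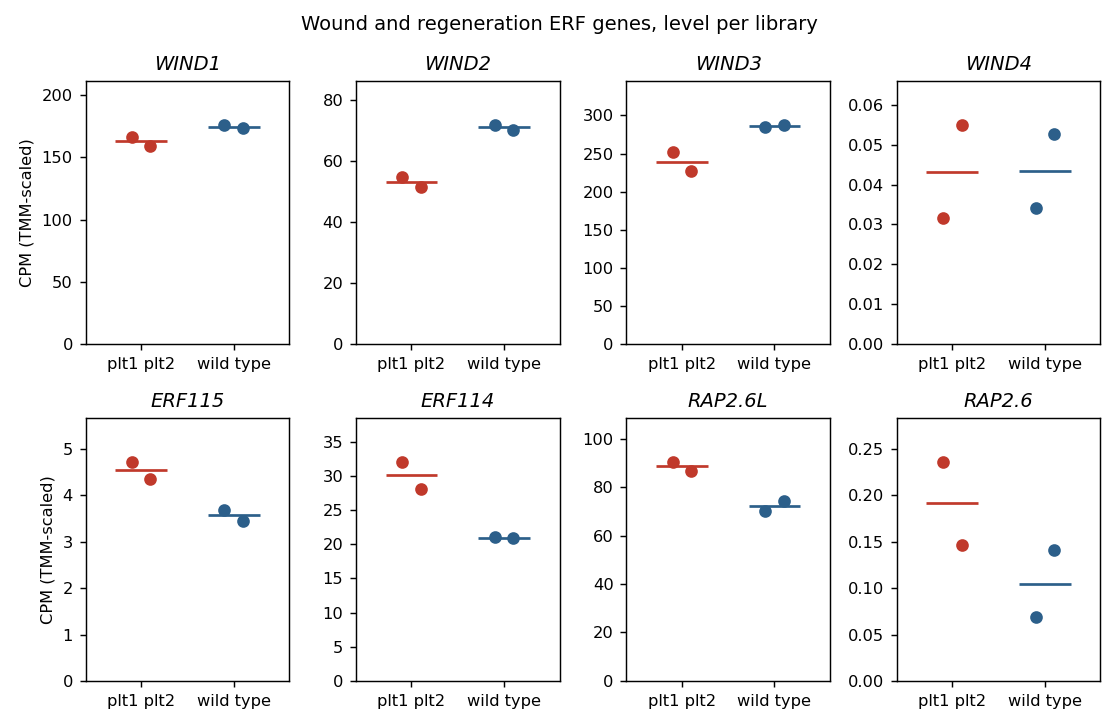
TMM-scaled CPM of the 8 ERF genes with a row, 1 point per library and a line at the mean of each label. WIND1, WIND2 and WIND3 lie lower under the plt1 plt2 label and ERF115, ERF114 and RAP2.6L lie higher, each with no overlap, while WIND4 and RAP2.6 stay below 0.3 CPM.

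Among the WIND genes, WIND2 (chromosome 1, 7835781 to 7837411, plus strand, a single exon) changed most. It had 54.7 and 51.6 CPM in the libraries labelled plt1 plt2, against 71.8 and 70.2 CPM in those labelled wild type. Both plt1 plt2 values lay below both wild type values, and WIND2 fell by 0.42 ± 0.05 on the log2 scale (SE; edgeR adjusted p = 0.00032), a level that fell by 25.1%. WIND3 (chromosome 1, 13454496 to 13456336, minus strand, a single exon) had 252 and 226 CPM under the plt1 plt2 label and 285 and 288 CPM under the wild type label. The groups were again separate, and the libraries labelled plt1 plt2 differed more from each other than the 2 wild type libraries did. WIND3 fell by 0.26 ± 0.05 (edgeR adjusted p = 0.0121), and its level fell by 16.4%. Leaving out wild type 1 (edgeR adjusted p = 0.0682) or wild type 2 (0.0832) ended this call.

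WIND1 (chromosome 1, 29364072 to 29366207, plus strand, a single exon), the best studied of the clade, had 166 and 159 CPM in the libraries labelled plt1 plt2 and 176 and 173 CPM in those labelled wild type. The values did not overlap but lay close together. Its log2 fold change of -0.10 ± 0.04 (95% interval -0.20 to -0.0023) was not called over all genes (edgeR adjusted p = 0.193). WIND4 (chromosome 5, 26017185 to 26018349, plus strand) had 2 and 3 reads under the plt1 plt2 label and 2 and 3 under the wild type label and did not pass the filter. Its ratio of 0.977 has a 95% interval of 0.225 to 4.25, which covers counting error only, so a difference was not detectable at this depth. Summed over WIND1, WIND2 and WIND3, the level was 473 and 437 CPM under the plt1 plt2 label, against 532 and 531 CPM under the wild type label.

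In the ERF115 clade, ERF114 (chromosome 5, 24852322 to 24853941, minus strand, 2 exons) had the largest change of the 6 tested members. It had 32.1 and 28.1 CPM in the libraries labelled plt1 plt2, against 21.0 and 20.9 CPM in those labelled wild type. The wild type values were almost equal and both plt1 plt2 values stood clear of them. ERF114 rose by 0.52 ± 0.07 on the log2 scale (edgeR adjusted p = 0.000947), a 1.44-fold higher level. RAP2.6L (chromosome 5, 4271730 to 4274674, plus strand, 2 exons), the most abundant gene of this clade, was at 90.6 and 86.7 CPM under the plt1 plt2 label and 70.3 and 74.2 CPM under the wild type label. The lowest plt1 plt2 value was above the highest wild type value, and RAP2.6L rose by 0.30 ± 0.05 (edgeR adjusted p = 0.00315), 22.7% higher.

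ERF115 (chromosome 5, 2305551 to 2306837, plus strand, 2 exons) was at 4.73 and 4.36 CPM under the plt1 plt2 label and at 3.69 and 3.45 CPM under the wild type label, from 300 and 238 reads against 216 and 196 reads. Both plt1 plt2 values were higher, and the log2 fold change was 0.35 ± 0.14, with a 95% interval of 0.05 to 0.65. This did not pass over all genes (edgeR adjusted p = 0.141, and 0.108 to 0.442 over the alternatives run), with an unadjusted p of 0.0272 from the same edgeR fit. The estimate lay between those of ERF114 and RAP2.6L, and its interval holds both.

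RAP2.6 (chromosome 1, 16263805 to 16264945, plus strand, 2 exons), a stress-responsive relative, had 15 and 8 reads in the libraries labelled plt1 plt2 and 4 and 8 reads in those labelled wild type. It did not pass the filter, and its ratio of 1.87 has a 95% interval of 0.894 to 4.13 from counting error alone. Summed over ERF115, ERF114 and RAP2.6L, the level was 89.9 and 83.8 RPKM under the plt1 plt2 label, against 66.7 and 69.0 RPKM under the wild type label. The library labelled plt1 plt2 1 lay above plt1 plt2 2 for all 6 tested members of both clades, so that leaving it out moved the WIND estimates down and the ERF115 clade estimates toward 0, with every call kept.

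The 8 genes with a row overlap no other annotated gene in TAIR10.1, and no stretch of 50 bases or more of their exons matches elsewhere in the genome at 95% identity or more. Markers of other cell types moved with the labels in the same libraries. All 4 root cap markers (SMB, FEZ, BRN1 and BRN2) were lower, with summed levels of 26.5 and 37.5 CPM under the plt1 plt2 label and 62.4 and 57.6 CPM under the wild type label. By DESeq2, 3 of these 4 were called, where 957 of the 19325 genes tested were called lower. All 3 phloem markers (SUC2, SEOR1 and SEOR2) were lower, at 3.85 and 3.97 CPM summed under the plt1 plt2 label and 7.56 and 6.88 CPM under the wild type label, and DESeq2 called 2. No defining marker of either list was at 0 in any library. By edgeR at the same threshold, 4 of 6 callus markers were called higher and 1 lower, against 4.63% and 5.86% of all genes tested. Leaving out wild type 1 ended the calls of LBD16, LBD17, LBD18, SMB, BRN2, SUC2 and SEOR1 (edgeR adjusted p = 0.0518 to 0.256), and leaving out wild type 2 ended those of the same genes other than SMB (0.0503 to 0.247). The calls of LBD17 (0.0900) and LBD18 (0.0726) also ended without plt1 plt2 1, and that of SUC2 (0.0512) without plt1 plt2 2. WOX5, also called higher (edgeR adjusted p = 0.0375), was not followed in the fits with a library left out. The part of all these markers in the levels of the ERF genes was not tested.

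The rest of the AP2/ERF family gives the setting for these changes. A keyword search of the RefSeq notes and product names gave 140 loci. It also took in microRNA loci such as MIR172a and MIR172c, which do not encode AP2/ERF proteins and were not tested. Of the 140 loci, 88 were tested, and 10 rose and 9 fell. Without the members the counts were 8 higher and 7 lower of 82 (9.76% and 8.54%, against 4.63% and 5.86% of all genes tested). These counts include PLT2, called higher, and PLT1, called lower. The median log2 fold change of the 82 was near 0 (0.0018). In the DREB subfamily A-6, which holds the WIND genes, 2 of 7 tested genes were called lower, against 5.86% of all genes tested. Both are members, WIND2 and WIND3. In the ERF subfamily B-4, which holds ERF115 and its relatives, 2 of 5 were called higher, against 4.63% of all genes tested. These are also members, ERF114 and RAP2.6L. Subfamily B-2 had 3 of 5 called lower, RAP2.2, EBP and ERF73, where 5.86% of all genes tested were called lower. The other 2, RAP2.12 (log2 fold change -0.09) and ERF71 (0.38), were not called. All of these but RAP2.2 are named after their values were seen. These B-2 genes belong to the group known for responses to low oxygen.

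**Figure D3:**
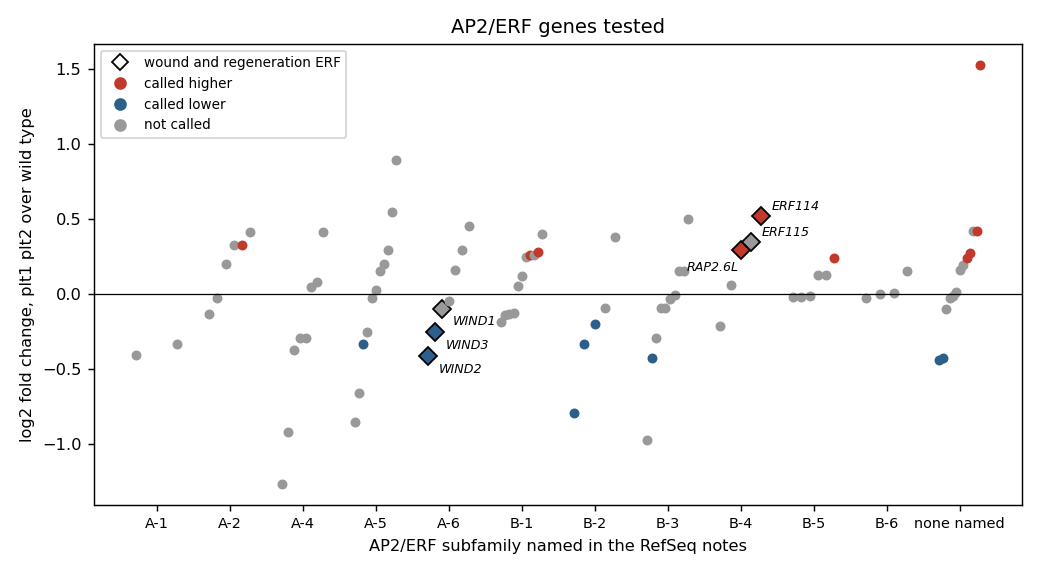
Log2 fold change (plt1 plt2 over wild type) of the 88 AP2/ERF genes tested, by the subfamily that the RefSeq notes name, with the ERF members as diamonds. The A-6 members lie between -0.42 and -0.10 and the B-4 members between 0.30 and 0.52; the topmost point, at 1.53, is PLT2.

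Non-member relatives were not called. Among 6 further genes of the WIND subfamily, 4 were tested and 0 called (edgeR; 1 had an unadjusted p below 0.05, and DESeq2 called 0). AT4G39780, the most abundant, had 6.53 and 8.06 CPM under the plt1 plt2 label and 7.61 and 7.40 CPM under the wild type label, values that overlap. AT1G64380 had 2.68 and 2.49 CPM under the plt1 plt2 label, against 2.02 and 1.76 CPM under the wild type label, with no overlap (log2 fold change 0.45 ± 0.18, edgeR adjusted p = 0.149). Of 3 further genes of the ERF115 subfamily, 2 were tested and 0 called (0 at an unadjusted p below 0.05, 0 by DESeq2). ABR1, a repressor in abscisic acid responses that overlaps a gene on the other strand, was not called (log2 fold change -0.21 ± 0.10, edgeR adjusted p = 0.216). Its value rests on single libraries, at -0.30 (adjusted p = 0.0400) with plt1 plt2 2 left out, -0.14 (0.449) without plt1 plt2 1, -0.33 (0.144) without wild type 2 and -0.09 (0.714) without wild type 1. AT2G33710 had a log2 fold change of 0.06 ± 0.07.

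The AP2/ERF genes most like each called member were found by the Euclidean distance between log2 CPM profiles over the 4 libraries, each after subtraction of its own mean, among the 87 other family members tested. Nearest to WIND2 were AP2, the floral homeotic gene (distance 0.0766), and RAP2.2 (0.104). Nearest to WIND3 were RAP2.10 (0.0859) and AT1G75490 (0.122). For ERF114 they were AT1G64380 (0.160) and the cytokinin response factor gene CRF6 (0.171), and for RAP2.6L they were CRF5 (0.0594) and BBM (0.0794), a PLETHORA family gene that promotes somatic embryos. With 4 libraries in 2 groups, such a distance mostly reflects the size of the difference between the labels and the offset between libraries of 1 label.

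CRF6 had 41.9 and 42.1 CPM in the libraries labelled plt1 plt2, against 31.3 and 31.4 CPM in those labelled wild type, and it rose by 0.42 ± 0.05 on the log2 scale (edgeR adjusted p = 0.000338). AP2 had 31.1 and 27.5 CPM under the plt1 plt2 label and 39.8 and 39.9 CPM under the wild type label. It fell by 0.44 ± 0.06 on the log2 scale (edgeR adjusted p = 0.00145). The calls of CRF5 (log2 fold change 0.24) and RAP2.10 (-0.33) ended with wild type 1 left out (edgeR adjusted p = 0.179 and 0.0598) or wild type 2 (0.0648 and 0.0812). That of CRF5 also ended without plt1 plt2 1 (0.0961) and by DESeq2 (0.0729), while AT1G75490, at a log2 fold change of -0.14 and not called, passed with plt1 plt2 1 left out (edgeR adjusted p = 0.00524).

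The list of ERF targets also holds the phytosulfokine precursor genes as a family, and its called genes moved both ways. Phytosulfokine (PSK) is a sulfated peptide that promotes cell division, and PSK5 is a target of ERF115. Of 11 listed genes 9 were tested, and 1 rose and 2 fell, where 4.63% of all genes tested rose and 5.86% fell. The list median was -0.03, against -0.0005 over all genes tested. All 3 calls were of PSK precursor genes other than PSK5, for which no direct link to an ERF is given here. PSK1 had 7.88 and 6.10 CPM in the libraries labelled plt1 plt2, against 12.2 and 12.0 CPM in those labelled wild type. It fell by 0.79 ± 0.12 on the log2 scale (edgeR adjusted p = 0.00171); a gene on its own strand overlaps it. PSK3 had 19.0 and 15.1 CPM under the plt1 plt2 label and 22.5 and 21.2 CPM under the wild type label. PSK3 fell by 0.35 ± 0.10 (edgeR adjusted p = 0.0412).

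PSK4 had 36.0 and 28.1 CPM in the libraries labelled plt1 plt2, against 21.0 and 22.5 CPM in those labelled wild type, and rose by 0.56 ± 0.10 (edgeR adjusted p = 0.00491). The 3 genes showed no overlap between the labels, and in each the libraries labelled plt1 plt2 stood further apart than those labelled wild type. The estimate of PSK4 was 0.37 without plt1 plt2 1 and 0.73 without plt1 plt2 2. The PSK3 call ended without wild type 1 (edgeR adjusted p = 0.189), wild type 2 (0.0944) or plt1 plt2 2 (0.115, with a log2 fold change of -0.20), and the log2 fold change was -0.53 without plt1 plt2 1. Summed over the 5 PSK genes, the level was 65.1 and 50.8 CPM under the plt1 plt2 label, a range that spans the 57.6 and 57.6 CPM under the wild type label.

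**Figure D4:**
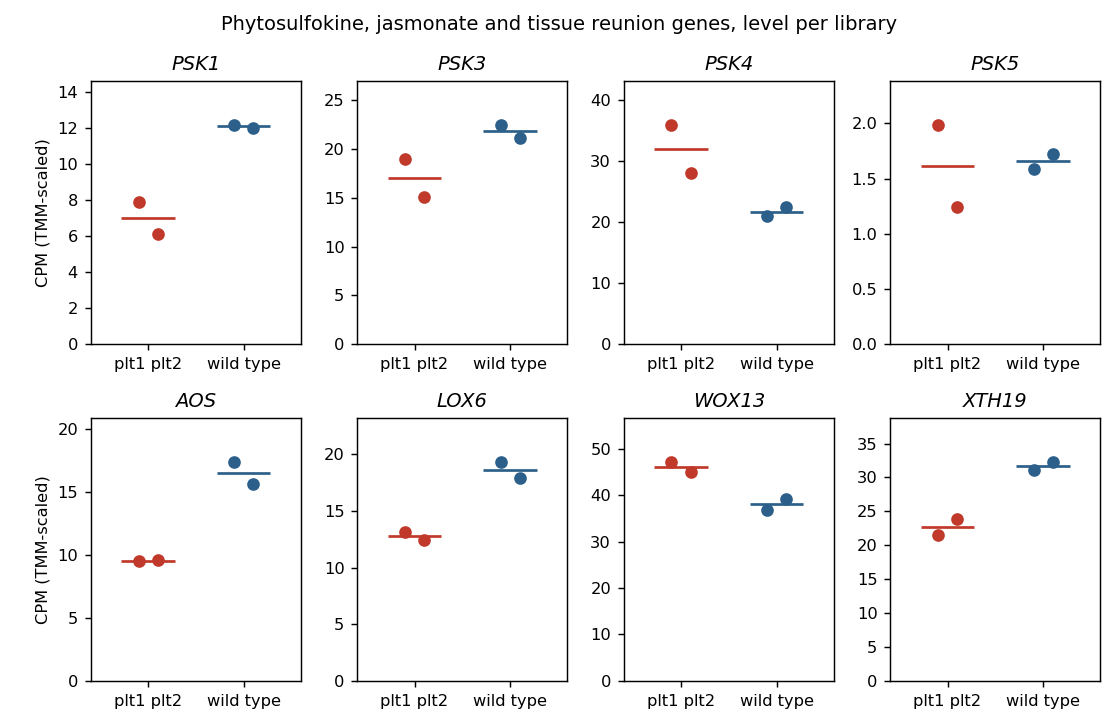
TMM-scaled CPM of PSK precursor, jasmonate synthesis and tissue reunion genes, 1 point per library and a line at the mean of each label. PSK1, PSK3, AOS, LOX6 and XTH19 lie lower and PSK4 and WOX13 higher under the plt1 plt2 label, while the libraries overlap for PSK5.

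The targets with the closest reported link to a member are named here outside the rule for named genes. PSK5 had 1.99 and 1.25 CPM under the plt1 plt2 label and 1.59 and 1.72 CPM under the wild type label, and its log2 fold change, -0.03 ± 0.25, was not called (edgeR adjusted p = 0.970). ESR1, a shoot regeneration gene that WIND1 activates directly, had 10 and 0 reads under the plt1 plt2 label, against 6 and 4 reads under the wild type label, and did not pass the filter. ASA1, which makes anthranilate and is a target of ERF109, had 45.1 and 42.7 CPM under the plt1 plt2 label, a range that spans the 43.4 and 43.6 CPM under the wild type label. MP, an auxin response factor downstream of ERF115, had 288 and 284 CPM under the plt1 plt2 label and 298 and 284 CPM under the wild type label. YUC2, another ERF109 target, had 1 read under each label. The libraries of the 2 labels overlapped for these 5 genes. ASA1 and MP also share bases with annotated genes on the other strand.

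For partners, upstream factors and PSK receptors no difference was called. None of 6 genes for partners and regulators of ERF115 was called (edgeR; 0 at an unadjusted p below 0.05, 0 by DESeq2), with log2 fold changes from -0.10 to 0.11. PAT1, the GRAS partner, had 58.0 and 65.9 CPM under the plt1 plt2 label, against 66.3 and 66.2 CPM under the wild type label. It was not called (log2 fold change -0.10 ± 0.06, edgeR adjusted p = 0.356), but leaving out plt1 plt2 2 gave a call (-0.19, adjusted p = 0.0334), so 1 library decides that value. RBR1, the retinoblastoma-related cell cycle regulator, had 161 and 168 CPM under the plt1 plt2 label and 158 and 147 CPM under the wild type label, and was not called (0.11 ± 0.05, edgeR adjusted p = 0.211). That estimate was 0.06 without wild type 2 and 0.16 without wild type 1, and RBR1 overlaps a gene on the other strand. The PSK receptor genes PSKR1 (log2 fold change 0.07 ± 0.05) and PSKR2 (0.07 ± 0.04) were not called either, with 0 of 2 at an unadjusted p below 0.05 and 0 by DESeq2.

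**Figure D5:**
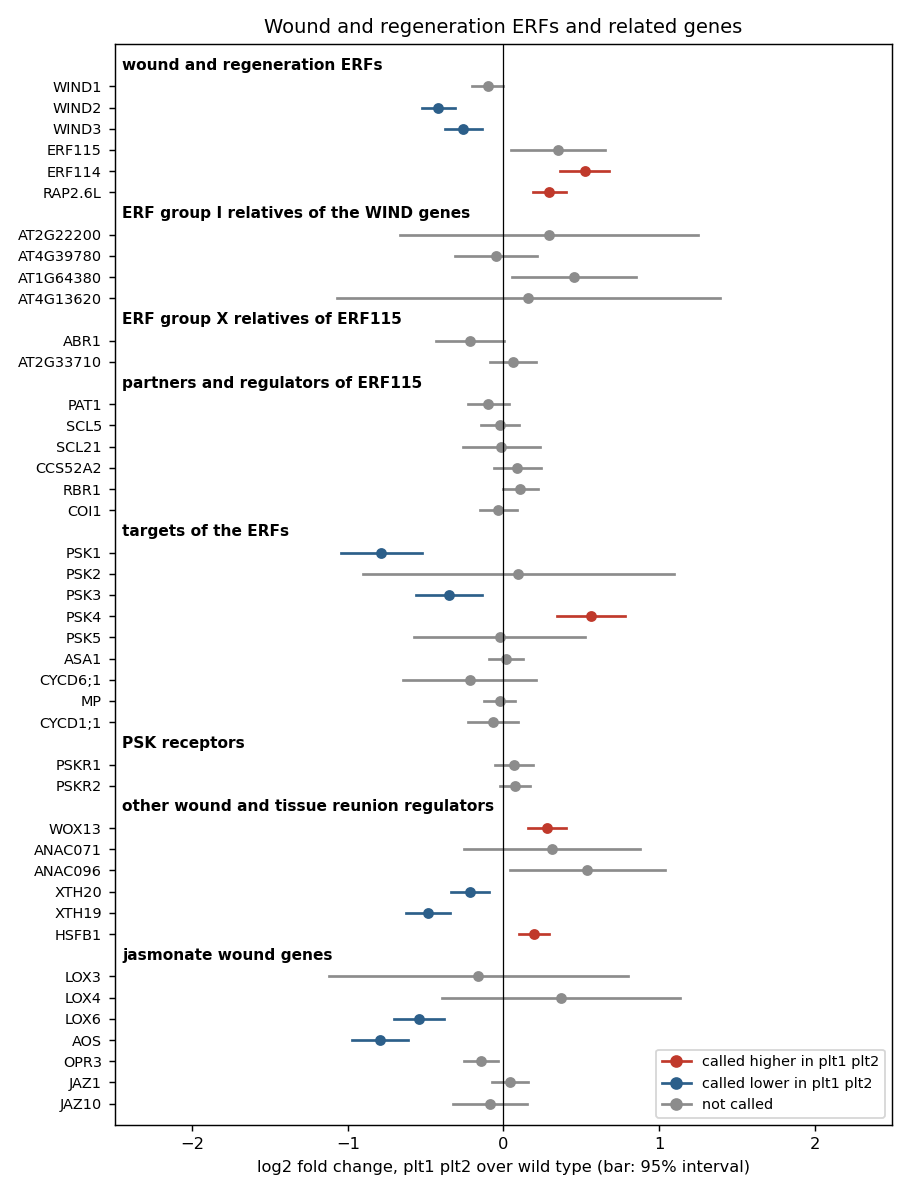
Log2 fold change (plt1 plt2 over wild type) with its 95% interval from the edgeR fit, for the tested ERF members and the genes of 7 related lists. The intervals of ERF114, at 0.37 to 0.68, and WIND2, at -0.53 to -0.31, lie on opposite sides of 0, and those of PAT1, SCL5, SCL21 and COI1 span it.

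Other regulators of wounding and tissue reunion split. Of 7 listed genes 6 were tested, and 2 rose and 2 fell, where 4.63% of all genes tested rose and 5.86% fell. The list median was 0.24, against -0.0005 over all genes tested. The 2 not called, ANAC071 (log2 fold change 0.31) and ANAC096 (0.54), are given outside the rule for named genes. WOX13, a homeobox gene that promotes callus formation at wounds, had 47.3 and 45.0 CPM in the libraries labelled plt1 plt2, against 36.8 and 39.3 CPM in those labelled wild type, and rose by 0.28 ± 0.05 (edgeR adjusted p = 0.00814). WOX13 shares bases with an opposite-strand gene, and its call ended without wild type 1 (0.0754). HSFB1, a class B heat shock factor, had 83.6 and 81.6 CPM under the plt1 plt2 label and 71.1 and 73.1 CPM under the wild type label (log2 fold change 0.20 ± 0.04, edgeR adjusted p = 0.0189). That call ended without wild type 1 (0.122) or wild type 2 (0.0655).

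XTH19 and XTH20, cell wall enzymes that act in pith cell proliferation after stem cutting, fell. XTH19 had 21.5 and 23.9 CPM in the libraries labelled plt1 plt2, against 31.1 and 32.3 CPM in those labelled wild type (log2 fold change -0.48 ± 0.06, edgeR adjusted p = 0.000874). XTH20 had 32.2 and 34.7 CPM under the plt1 plt2 label and 39.1 and 38.3 CPM under the wild type label (-0.21 ± 0.05, edgeR adjusted p = 0.0330). The XTH20 call ended without plt1 plt2 1 (adjusted p = 0.126), wild type 1 (0.155) or wild type 2 (0.112) and by DESeq2 (0.0791).

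Jasmonate rises on wounding and induces ERF109 and, through it, ERF115. Of 10 jasmonate wound genes 7 were tested, and 2 were called, both lower, where 5.86% of all genes tested were called lower. The list median was -0.14, against -0.0005 over all genes tested. The 5 not called, given outside the rule for named genes, were LOX3 (log2 fold change -0.16), LOX4 (0.37), OPR3 (-0.14), JAZ1 (0.04) and JAZ10 (-0.09). AOS, the allene oxide synthase of jasmonate synthesis, had 9.49 and 9.61 CPM in the libraries labelled plt1 plt2, against 17.4 and 15.7 CPM in those labelled wild type, and fell by 0.79 ± 0.08 (edgeR adjusted p = 0.000154). LOX6, a lipoxygenase at the entry of the pathway, had 13.1 and 12.5 CPM under the plt1 plt2 label and 19.4 and 17.9 CPM under the wild type label. LOX6 fell by 0.54 ± 0.07 (edgeR adjusted p = 0.000967). Both genes showed no overlap between the labels.

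Early wound and stress transcription factors were mostly not called. Of 14 listed genes 13 were tested and 1 was called, higher, where 4.63% of all genes tested were called higher. The list median was -0.0055 (2 had an unadjusted p below 0.05 by edgeR, and DESeq2 called 0). ZAT12, a zinc finger gene of oxidative stress responses, had 23.1 and 16.0 CPM in the libraries labelled plt1 plt2, against 14.0 and 14.0 CPM in those labelled wild type. The first of the plt1 plt2 libraries stood far above the other. The difference of 0.49 ± 0.14 on the log2 scale (edgeR adjusted p = 0.0464) became 0.19 without plt1 plt2 1 (0.181), and the call also ended without wild type 1 (0.159) or wild type 2 (0.166) and by DESeq2 (0.314).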

How the data were processed

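RNA-seq counts of 4 callus libraries, 2 per genotype label, were analysed. The authors deposited raw read counts per gene for 23922 loci, with 1 column per library and no column of another sample. Trim Galore 0.5.0, STAR 2.7.2b, DESeq2 and build TAIR10 are named in the submitters' processing notes; the counting tool, annotation and strand setting are not given in the sources used here. Without strand, reads of overlapping genes cannot be told apart. Counts were used as deposited.

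Genotype was tested with edgeR 4.0.16 (R 4.3.3): low counts were removed by filterByExpr, libraries scaled by TMM, and the genotype label tested by glmQLFit and glmQLFTest. P-values of the 19325 genes tested were adjusted by the Benjamini-Hochberg method. Calls are at an adjusted p below 0.05. The standard error (SE) is the size of the log2 fold change divided by the square root of F, and its 95% interval uses the moderated degrees of freedom. CPM used TMM-scaled library totals, and RPKM the union of RefSeq exons. Exact intervals for low counts cover counting error only. The fit was tested on simulated data. Symbols, notes and upstream sequences are from RefSeq TAIR10.1; 9 of 9 members matched, and motifs were searched in 250 upstream bases. TAIR10 and TAIR10.1 were not compared, since the table holds no coordinates.

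The members and gene lists were chosen with earlier results of these data known. Named are all members, PLT1 and PLT2, up to 4 called genes of each list by size of change or, with none called, the 2 most abundant, and the 2 AP2/ERF genes nearest in profile to each called member. The alternatives were RLE size factors, library totals, DESeq2 1.42.0, no low-count filter, a mean of 50 or more reads, a replicate block and leaving out each library.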

Additional observations from a re-analysis of the deposited data

How the results depend on the processing

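The 6 tested members kept their direction under all 10 alternatives. WIND2, ERF114 and RAP2.6L were called under each, WIND3 under 8, and WIND1 and ERF115 under none. Leaving out each library in turn gave 3 to 4 members called, 1068 to 3026 genes called against 2027 with all libraries, and 5 to 12 genes called in the related lists against 10. Without wild type 1 the counts were 1137 genes and 5 related genes, and without wild type 2 they were 1068 and 6. Over those repeats the log2 fold changes of AT4G39780 (-0.20 to 0.10), PSKR1 (-0.0062 to 0.13) and CAB1 (-0.39 to 1.08) changed sign, and none of these was called. Of 458 values of 46 named genes under the alternatives, 411 kept direction and call, 41 lost the call, 3 gained it and 3 changed sign; the cause was not tested. The labels do not say whether equal replicate numbers pair the samples. The correlation of replicate differences across genes was weak (-0.0896), and a replicate block gave 1909 genes, 4 members and 11 related genes called. Library totals alone moved the median of all genes by 0.02 on the log2 scale. WIND4 and RAP2.6 are limited by their read counts.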
